A study of Mus musculus with 34 samples.

Results

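The 28 genes described here encode enzymes that make cholesterol and desaturate fatty acids, together with the proteins that control their transcription. They were taken by symbol from a fixed list and matched through GENCODE to 28 of the 54532 gene rows of the bulk RNA-seq count table, so every gene of the list was found, and all 28 passed the filter on low counts. The RNA came from dorsal hippocampi of 8 adult male C57BL/6J mice, which the study's methods give as 2 to 3 months old. The 4 homecage mice were not trained, and the 4 mice of the SOR group were trained in the spatial object recognition task, in which a mouse explores an open arena with glass objects at set places, and were euthanized 1 h after training. No genetic change and no agent is named for either group, and each library stands for 1 mouse.

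Cholesterol is built from acetyl-CoA through mevalonate and squalene to lanosterol, which a further series of enzymes trims to cholesterol. The brain makes its own cholesterol because lipoproteins of the blood do not cross the blood-brain barrier, and both astrocytes and myelinating oligodendrocytes are known for high activity of the pathway. Transcription of these enzymes is driven by SREBP-2, and that of fatty acid enzymes largely by SREBP-1. Both are membrane proteins that SCAP escorts from the endoplasmic reticulum for cleavage, unless INSIG proteins hold SCAP back when sterols are plentiful.

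None of the 28 genes passed an adjusted p of 0.05 between SOR and homecage mice (edgeR quasi-likelihood F test, Benjamini-Hochberg adjustment over all 22018 genes tested), a threshold that 0.309% of all genes tested passed. At an unadjusted p under 0.05 were 5 of the 28 genes, against 10.1% of all genes tested. *Mvd*, *Cyp51*, *Msmo1* and *Srebf2* were higher in SOR mice among these 5, and *Srebf1* was lower. In all, 17 of the 28 genes had a log2 fold change above 0, as had 43.8% of all genes tested (18 of 28 and 50.2% with TMM scaling), and the median log2 fold change was 0.04, against -0.02 over all genes tested. The 17 sterol enzymes alone had a median of 0.09, with 13 above 0. One mouse, SOR replicate 4, held the highest level of 18 of the 28 genes, and without it the median over the 28 genes was -0.03 and 11 were above 0 (43.7% of all genes tested). The median over the 17 sterol enzymes was then 0.00, with 9 above 0. That mouse was picked for its high values, so lower medians without it were in part fixed by the choice. With each other mouse left out in turn, the median over the sterol enzymes was 0.079 to 0.122, with 12 or 13 above 0.

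Promoters are shown for 4 genes, picked by their values in these mice or their place in the pathway. Whether promoter sequence bears on those values was not tested. *Hmgcs1* and *Mvd* are enzymes that stood high in SOR replicate 4, *Cyp51* is the gene whose groups did not overlap, and *Srebf2* encodes the factor that drives the pathway. The stretches are the 140 bases nearest to the RefSeq start that lie in no annotated exon, on the gene's strand, from GRCm38.p6. They lie at chr13:119690211-119690350 (plus strand), chr8:122443423-122443562 (minus strand), chr5:4104747-4104886 (minus strand) and chr15:82147041-82147180 (plus strand). Capitals mark CACCCCAC, a core of the sterol regulatory element that SREBPs bind, and CCAAT on either strand, the box that nuclear factor Y binds.
Hmgcs1: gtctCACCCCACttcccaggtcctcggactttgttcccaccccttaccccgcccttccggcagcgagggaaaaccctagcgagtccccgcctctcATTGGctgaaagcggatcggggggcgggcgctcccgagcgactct
Mvd: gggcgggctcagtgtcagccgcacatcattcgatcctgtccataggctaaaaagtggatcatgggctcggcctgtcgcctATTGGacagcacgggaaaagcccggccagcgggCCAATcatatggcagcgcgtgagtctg
Cyp51: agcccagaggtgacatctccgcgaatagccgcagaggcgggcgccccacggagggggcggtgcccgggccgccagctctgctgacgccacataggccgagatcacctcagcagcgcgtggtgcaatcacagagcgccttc
Srebf2: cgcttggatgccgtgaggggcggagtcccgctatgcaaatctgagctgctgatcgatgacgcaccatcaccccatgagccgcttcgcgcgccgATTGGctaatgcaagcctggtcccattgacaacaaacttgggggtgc
The *Hmgcs1* stretch held 1 CACCCCAC and 1 CCAAT, the *Mvd* stretch 2 CCAAT, the *Srebf2* stretch 1 CCAAT and the *Cyp51* stretch neither. The *Cyp51* stretch ran from -189 to -50 relative to the RefSeq start, and a CCAAT lay outside it, at -29 to -25. Only exact matches were marked, so an element that departs from CACCCCAC would be missed.

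Windows of 300 bases around RefSeq starts (250 before to 50 after) were given for 21 of the 28 genes, all but *Fdps*, *Fdft1*, *Sqle*, *Stard4*, *Fads1*, *Scd1* and *Scd2*. CCAAT was found on either strand in 18 of these 21 genes (85.7%), against 42.1% of the 13499 tested genes with a window and 37.4% of all 32851 windows. GGGCGG, the GC box, was found in 20 of 21 (95.2%), against 61.6% of those tested genes and 35.7% of all windows. CACGTG, the E-box, was found in 5 of 21 (23.8%), against 10.7% and 7.15%. CACCCCAC was found in 2 genes, *Hmgcs1* and *Acat2* (9.5%), against 3.7% and 2.87%. TCACNCCAC, a related form with an added T and a free base, was found in *Hmgcs1* alone (4.8%), against 1.4% and 1.24%. The shares of genes count a match in any window of a gene, while those of all windows count single windows. By single window, CCAAT was found in 19 of the 29 windows of the 21 genes and GGGCGG in 24. CACGTG was found in 6 of them, CACCCCAC in 2 and TCACNCCAC in 1. These matches are letters in the reference sequence and not measured binding, and the base composition of the windows was not matched between the genes.

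Each library held between 51406011 and 81525977 estimated counts, with medians of 63389924.5 in the homecage and 60737357.5 in the SOR group, and the 28 genes took between 0.246% and 0.291% of them. SOR replicate 4 was the smallest library and had the largest share. The spread between replicates exceeded counting error, with a chi-square per degree of freedom of 11.1 to 49.2 between pairs, and SOR replicate 1 stood farthest from its group (45.2 to 49.2, against 11.1 to 16.6 for the other SOR pairs). The 4 early genes fixed as a check of the training label, *Fos*, *Arc*, *Egr2* and *Nr4a1*, were all called higher in SOR mice, with SOR above homecage in each. The 9 markers of hippocampal neurons summed to 4346 to 4988 CPM and were detected in every library. None of the marker genes of the 7 cell type lists was called, and the medians of their log2 fold changes ran from -0.19 for mature oligodendrocytes to 1.26 for the choroid plexus.

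**Figure D1:**
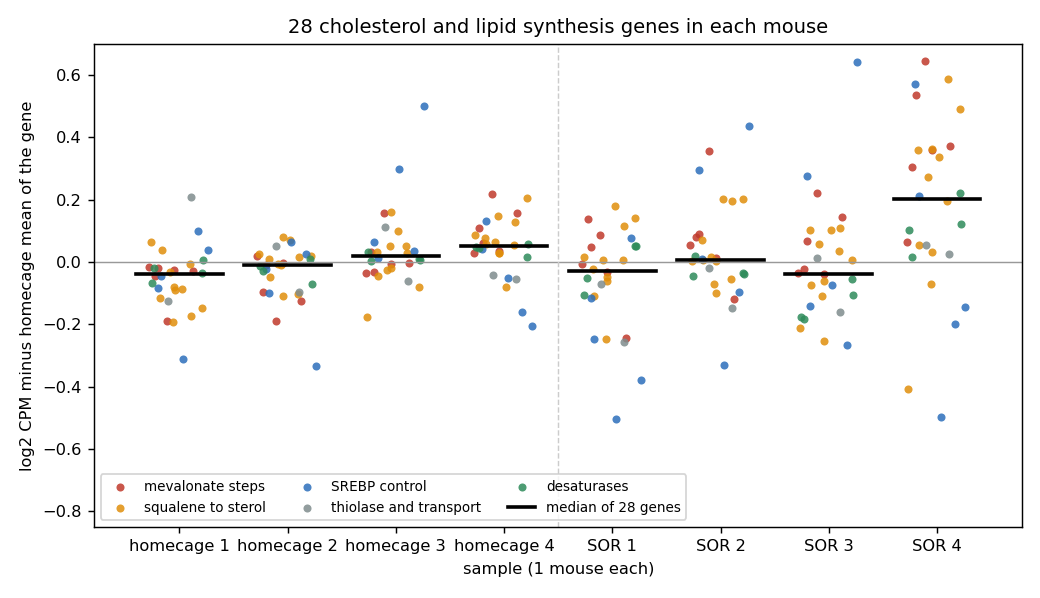
The vertical axis gives log2 CPM of each gene minus the homecage mean of that gene, and the horizontal axis gives the 8 mice. Each point is 1 of the 28 genes, coloured by role, and the black line is their median, which lay between -0.04 and 0.05 in 7 mice and at 0.20 in SOR replicate 4.

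The 28 genes differed more from gene to gene than between the groups. On a scale of CPM per kb of exon, with library sizes scaled by upper-quartile factors, homecage levels ran from 218 for *Scd2*, a stearoyl-CoA desaturase that puts the double bond into monounsaturated fatty acids and is the main form of the brain, to 2.05 for *Dhcr7*, the dehydrocholesterol reductase at the end of the pathway. *Hmgcs1*, the cytosolic HMG-CoA synthase, was second at 61.4 ± 1.06 (SD, n = 4), and its range did not touch those of its neighbours in the order. *Fads2* (27.5 ± 1.01) and *Scd1* (26.3 ± 0.595) followed with overlapping ranges, *Fads1* (25.2 ± 0.409) lay apart from both its neighbours, and *Pmvk* (20.1 ± 0.420) and *Insig1* (19.8 ± 1.39) overlapped. Of the 27 pairs of neighbours in the order, the homecage ranges of 19 overlapped, among them all pairs from *Acat2* (9.90 ± 0.710) down to *Ebp* (5.48 ± 0.438). *Lss* (2.83 ± 0.276), *Stard4* (2.33 ± 0.235) and *Dhcr7* (2.05 ± 0.177) were lowest. The lengths count every annotated exon base of a gene, so a gene with rare long isoforms, such as *Lss* with 10787 exon bases, is set low by this scale.

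**Figure D2:**
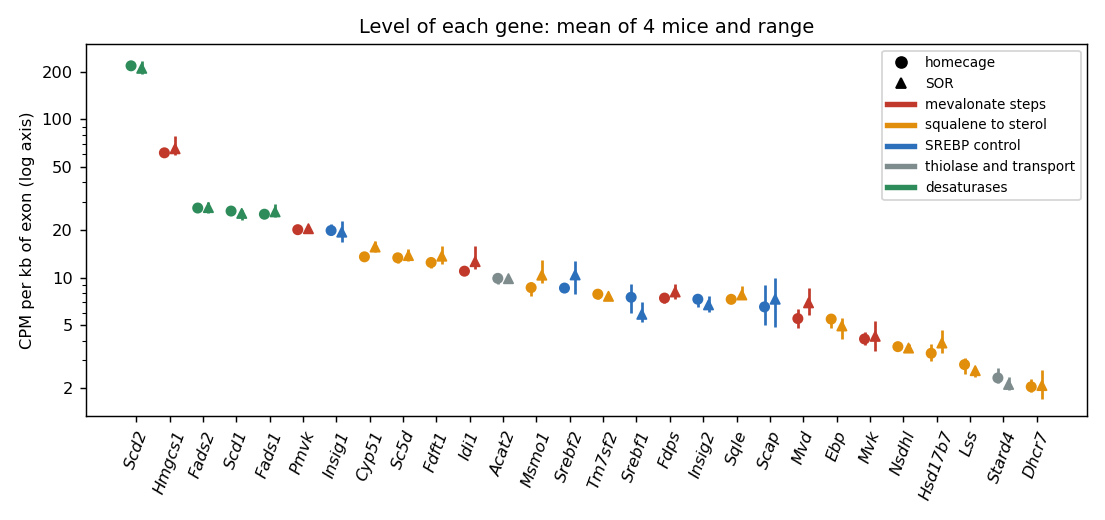
The vertical axis gives CPM per kb of annotated exon on a log axis, and the genes are ordered by their homecage mean. Circles are homecage means, triangles are SOR means and lines are the range over 4 mice; *Scd2* at 218 and 210 stands above all others and the homecage and SOR marks lie close together for most genes.

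Among the 6 enzymes from HMG-CoA to farnesyl diphosphate, all had a log2 fold change above 0, from 0.02 to 0.33 with a median of 0.11, and none was called. *Hmgcs1* (ENSMUSG00000093930, chromosome 13 of GRCm38 from 119690379 to 119708260) had 277, 281, 281 and 289 CPM in homecage replicates 1 to 4 and 275, 285, 274 and 362 CPM in SOR replicates 1 to 4. SOR replicates 1, 2 and 3 fell within or just below the homecage values, and SOR replicate 4 stood above all other mice. Its log2 fold change was 0.09 (SE 0.0807, adjusted p = 0.784, edgeR), and -0.02 without SOR replicate 4.

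*Mvd*, the decarboxylase that ends the mevalonate steps proper, lies on chromosome 8 from 122433601 to 122443422 (ENSMUSG00000006517). Its values were 8.92, 8.93, 11.3 and 11.8 CPM in homecage mice and 10.8, 13.01, 11.9 and 15.9 CPM in SOR mice. The groups overlapped through homecage replicates 3 and 4 and SOR replicate 1. The log2 fold change of 0.33 (SE 0.138, adjusted p = 0.463, edgeR; exact two-sided permutation p = 0.114) was the highest of the 28 genes, and it was 0.21 without SOR replicate 4.

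*Idi1*, the isomerase that makes dimethylallyl diphosphate (ENSMUSG00000058258, chromosome 13 from 8885501 to 8892451), had 38.0, 38.2, 37.6 and 40.2 CPM in homecage and 39.8, 40.9, 40.4 and 55.9 CPM in SOR mice. Only homecage replicate 4 reached into the SOR values, and SOR replicate 4 was far above the other 3 SOR mice. Its log2 fold change was 0.20 (SE 0.0998, adjusted p = 0.543, edgeR) and 0.06 without SOR replicate 4. Of the exon sequence of *Idi1*, 27.1% in stretches of 31 bases was shared with other genes, 18.4% with *Gm13502*, so part of its counts is uncertain.

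The kinases *Mvk* and *Pmvk* had log2 fold changes of 0.05 (SE 0.130) and 0.02 (SE 0.0455), with SOR values of 9.24 to 14.2 and 33.5 to 36.0 CPM against homecage values of 10.0 to 12.2 and 33.6 to 35.1 CPM. *Fdps*, which makes the farnesyl diphosphate that leads to sterols and to protein prenylation, had 30.3, 29.2, 32.0 and 33.7 CPM in homecage and 34.4, 33.0, 30.7 and 38.6 CPM in SOR mice (log2 fold change 0.13, SE 0.0746, adjusted p = 0.614, edgeR), and its log2 fold change was 0.06 without SOR replicate 4. *Fdps* shares 26.7% of its exon bases with the gene *Gm43738* on the same strand, and its counts could be split between them.

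Among the 11 enzymes from farnesyl diphosphate to cholesterol, 7 had a log2 fold change above 0 and 4 below, with a median of 0.05. *Cyp51*, the lanosterol demethylase (ENSMUSG00000001467, chromosome 5 from 4081145 to 4104746), had 56.1, 62.7, 63.9 and 56.4 CPM in homecage and 67.6, 68.6, 64.1 and 75.4 CPM in SOR mice. Every SOR mouse was above every homecage mouse, though homecage replicate 3 and SOR replicate 3 were only 63.9 and 64.1 CPM. This separation with SOR above was seen in 1 of the 28 genes, and in 2.98% of all genes tested. The log2 fold change was 0.21 (95% interval 0.07 to 0.34, SE 0.0617), with an adjusted p of 0.277 in edgeR's quasi-likelihood test and an exact two-sided permutation p of 0.0286, the smallest that 4 against 4 allow. It stayed between 0.16 and 0.24 when each mouse was left out in turn. *Cyp51* shares 3.8% of its exon bases with *Akap9* on the opposite strand.

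*Msmo1*, the methylsterol monooxygenase that acts after *Cyp51* (ENSMUSG00000031604, chromosome 8 from 64718139 to 64733792), had 47.0, 53.6, 54.1 and 58.0 CPM in homecage and 57.4, 60.7, 57.1 and 79.7 CPM in SOR mice. Homecage replicate 4 was above SOR replicates 1 and 3, and all other homecage mice were below the SOR mice. The log2 fold change was 0.26 (SE 0.105, adjusted p = 0.446, edgeR), and 0.13 without SOR replicate 4. *Hsd17b7*, the ketosteroid reductase of the same demethylation complex, had 15.3 to 19.5 CPM in homecage and 17.0 to 23.8 CPM in SOR mice (log2 fold change 0.21, SE 0.110, adjusted p = 0.559), and its log2 fold change was 0.11 without that mouse. *Nsdhl*, the dehydrogenase of that complex, had 10.1 to 10.9 and 9.70 to 10.9 CPM, a log2 fold change of -0.03 (SE 0.0743).

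*Fdft1*, squalene synthase, had 48.5 to 55.5 CPM in homecage and 51.8, 55.3, 56.6 and 67.5 CPM in SOR mice (log2 fold change 0.13, SE 0.0774, adjusted p = 0.616, edgeR), and its log2 fold change was 0.05 without SOR replicate 4. It shares 18.3% of its exon bases with *Ctsb* on the opposite strand, a far more abundant gene with a mean of 20440 counts, and whether the counting used strand is not given in the sources used here. *Sqle*, the squalene epoxidase that is a slow step of the pathway, had 39.6 to 42.3 CPM in homecage and 40.7, 40.9, 42.1 and 48.8 CPM in SOR mice (log2 fold change 0.09, SE 0.0626). The first 3 SOR mice were thus within the homecage range for *Sqle*, and SOR replicate 4 was above it. Without SOR replicate 4 the log2 fold change of *Sqle* was 0.02.

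*Lss*, which closes the sterol rings, and *Ebp*, a sterol isomerase, were the sterol enzymes with the lowest log2 fold changes, -0.13 (SE 0.0760) and -0.14 (SE 0.107). In SOR replicate 4, 15 of the 17 sterol enzymes were above their homecage mean, all but these 2. That mouse held the lowest value of *Ebp*, 9.51 CPM, while all other mice had 10.9 to 13.4 CPM, and the log2 fold change of *Ebp* was -0.07 without it. *Lss* was at 28.9 CPM in that mouse, against a homecage mean of 30.5 CPM. *Tm7sf2*, a sterol reductase, had a log2 fold change of -0.05 (SE 0.0532), and it shares 12.1% of its exon bases with *Vps51* on the same strand. *Sc5d*, the lathosterol oxidase, and *Dhcr7* had log2 fold changes of 0.05 (SE 0.0588) and 0.02 (SE 0.125), and both were below 0 without SOR replicate 4 (-0.01 and -0.11).

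**Figure D3:**
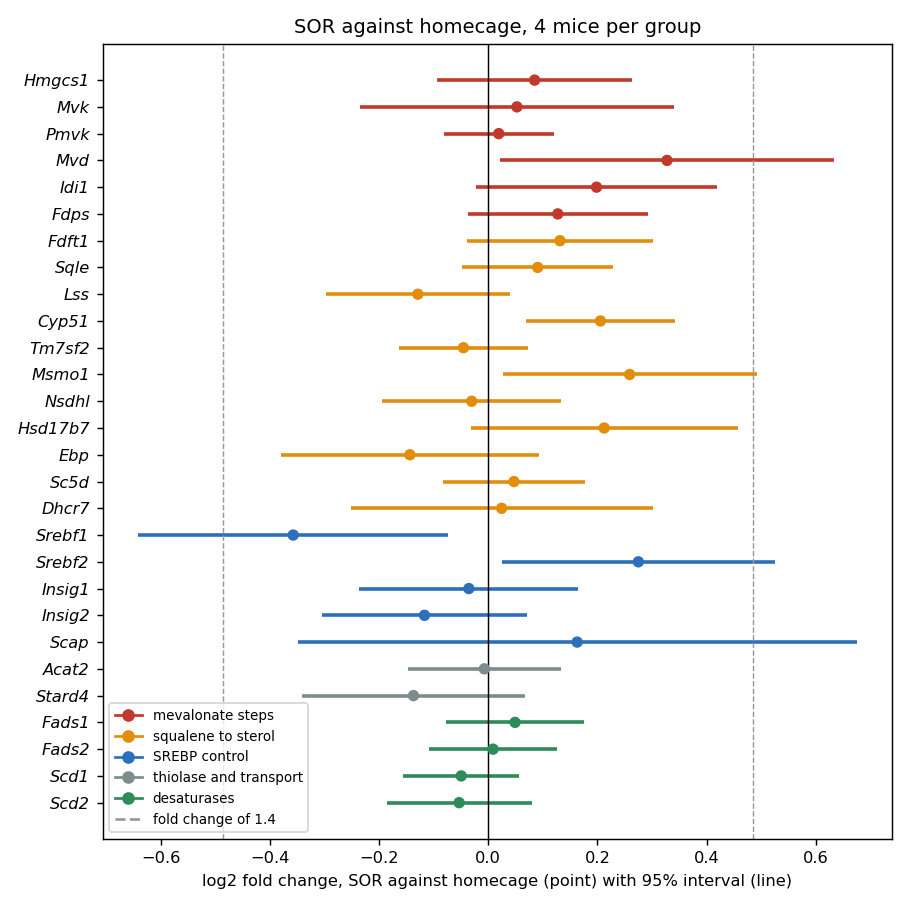
The horizontal axis gives the log2 fold change of SOR against homecage mice for each of the 28 genes, with points for the estimate, lines for its 95% interval from edgeR's quasi-likelihood fit and dashed lines at a fold change of 1.4 either way. The intervals of 23 genes lie between the dashed lines, and those of *Mvd*, *Msmo1*, *Srebf1*, *Srebf2* and *Scap* cross one of them.

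The 5 control genes did not share a direction. *Srebf2*, which encodes SREBP-2 (ENSMUSG00000022463, chromosome 15 from 82147181 to 82205379), had 58.3, 60.8, 64.5 and 63.5 CPM in homecage and 57.0, 75.8, 74.7 and 91.7 CPM in SOR mice. SOR replicates 2, 3 and 4 were above every homecage mouse, and SOR replicate 1 was below every one of them. The log2 fold change was 0.27 (95% interval 0.02 to 0.53, SE 0.113, adjusted p = 0.453, edgeR; exact two-sided permutation p = 0.143). It was 0.39 (adjusted p = 0.087) without SOR replicate 1 and 0.16 (adjusted p = 0.594) without SOR replicate 4.

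*Srebf1*, which encodes both forms of SREBP-1 (ENSMUSG00000020538, chromosome 11 from 60199089 to 60222581), had 33.8, 43.8, 51.5 and 40.4 CPM in homecage and 29.5, 33.3, 39.8 and 29.7 CPM in SOR mice. SOR replicates 1, 2 and 4 were below every homecage mouse, and SOR replicate 3 was above homecage replicate 1 only. Its log2 fold change was the lowest of the 28 genes at -0.36 (95% interval -0.64 to -0.07, SE 0.128, adjusted p = 0.382, edgeR; exact two-sided permutation p = 0.0571). It stayed between -0.46 and -0.25 when each mouse was left out in turn. The files give 1 value per gene, so the forms cannot be told apart.

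*Scap*, the escort of both SREBPs (ENSMUSG00000032485, chromosome 9 from 110333288 to 110384950), had the largest SE of the 28 genes, 0.231 on the log2 scale. It had 48.7, 37.7, 67.1 and 41.2 CPM in homecage and 36.5, 64.2, 74.0 and 43.0 CPM in SOR mice. Homecage replicate 3 and SOR replicates 2 and 3 stood high and the other 5 mice low, an order that cut across the groups. The same 3 mice were the highest 3 in 1.92% of all genes tested. The log2 fold change was 0.16 (adjusted p = 0.866, edgeR), with a 95% interval from -0.35 to 0.67. *Scap* shares 13.2% of its exon bases with *5830462I19Rik* on the opposite strand.

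*Insig1*, itself a target of SREBPs, had 57.2 to 67.2 CPM in homecage and 51.7 to 70.9 CPM in SOR mice (log2 fold change -0.04, SE 0.0906), and its sign changed without SOR replicate 1 (0.03). *Insig2* had 22.7 to 27.1 and 21.1 to 26.7 CPM, a log2 fold change of -0.12 (SE 0.0847). For both genes the SOR values spanned most of the homecage range.

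**Figure D4:**
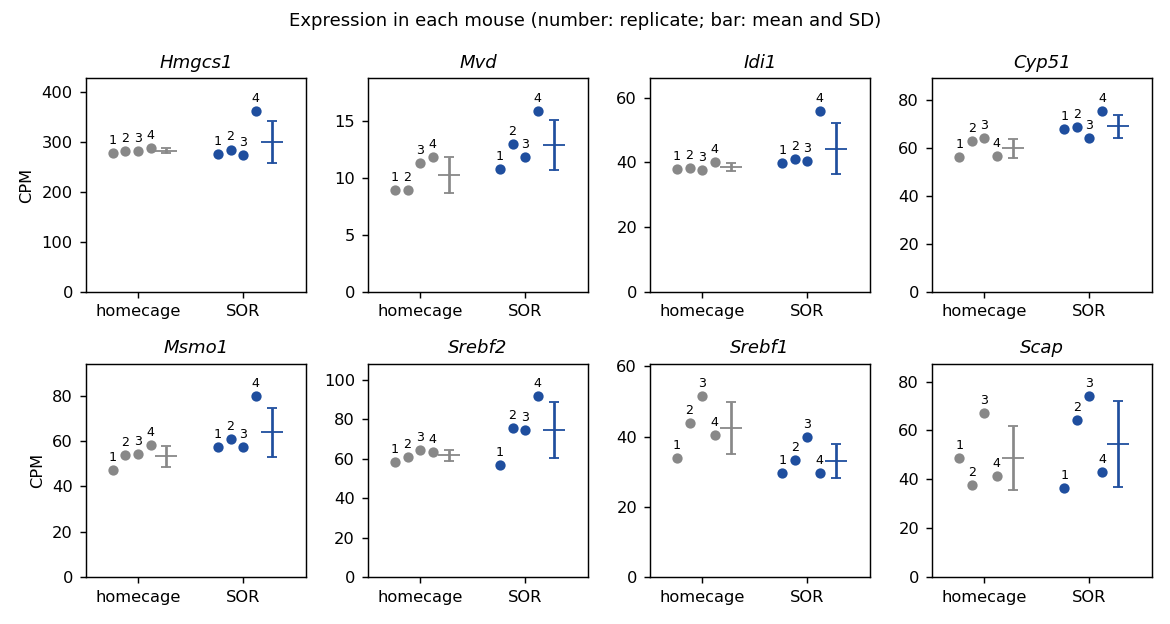
Each panel plots CPM on an axis from 0 for the 4 homecage mice (grey) and the 4 SOR mice (blue), with the replicate number over each point and the mean and SD beside them. SOR replicate 4 stands apart in *Hmgcs1* at 362 CPM and in *Idi1* at 55.9 CPM, *Srebf1* is lower in most SOR mice, and *Scap* is high in homecage replicate 3 and SOR replicates 2 and 3.

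*Acat2*, the cytosolic thiolase that makes the acetoacetyl-CoA at the head of the pathway, had 23.1 to 27.2 CPM in homecage and 24.0 to 26.1 CPM in SOR mice. Its log2 fold change was -0.01 (95% interval -0.15 to 0.13), and 43.7% of its sequence in stretches of 31 bases was shared with *Acat3*, so the value may hold reads of both. *Stard4*, a carrier that moves sterols between membranes, had 12.1 to 15.0 and 10.9 to 13.2 CPM, a log2 fold change of -0.14 (SE 0.0925, adjusted p = 0.67, edgeR).

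The 4 desaturases had log2 fold changes within 0.06 of 0 on either side with all mice. *Scd2* had 1134, 1177, 1214 and 1229 CPM in homecage and 1103, 1151, 1052 and 1276 CPM in SOR mice (log2 fold change -0.05, 95% interval -0.19 to 0.08). SOR replicates 1 and 3 were below every homecage mouse and SOR replicate 4 was above every one of them, and without that mouse the log2 fold change of *Scd2* was -0.11 (edgeR, unadjusted p = 0.0371, adjusted p = 0.453). *Scd1*, the related desaturase, had 126 to 133 and 113 to 130 CPM, and its log2 fold change was -0.05 (95% interval -0.16 to 0.06). *Fads1* and *Fads2*, the desaturases of polyunsaturated fatty acids, had log2 fold changes of 0.05 (95% interval -0.08 to 0.18) and 0.01 (95% interval -0.11 to 0.13). Over the 28 genes, the 95% interval lay within a fold change of 1.4 in both directions for 23 (82.1%), against 58.9% of all genes tested. Intervals narrow with higher counts, and expression level was not matched between the 28 genes and all genes tested. These shares therefore do not show that the 28 genes were steadier than others.

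SOR replicate 4 held the highest of the 8 values for 18 of the 28 genes (64.3%), and for 12.1% of all genes tested. Among the 17 sterol enzymes it was the highest for 13. The 18 genes were picked by this highest value, so a level above the mean of the other mice was fixed in advance. Their level in SOR replicate 4 was 1.04 to 1.45 times the mean of the other 7 mice, with a median of 1.23. The genes with their highest value in another mouse were *Lss*, *Tm7sf2*, *Nsdhl*, *Ebp*, *Srebf1*, *Insig2*, *Scap*, *Acat2*, *Stard4* and *Scd1*. Over all 28 genes, the median difference of SOR replicate 4 from the homecage mean of each gene was 0.20 on the log2 scale. Relative to the homecage mean of each gene, the median over the 17 sterol enzymes was 0.34 on the log2 scale in SOR replicate 4 and between 0.01 and 0.02 in the other SOR mice. In the homecage mice it ran from -0.04 to 0.07.

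**Figure D5:**
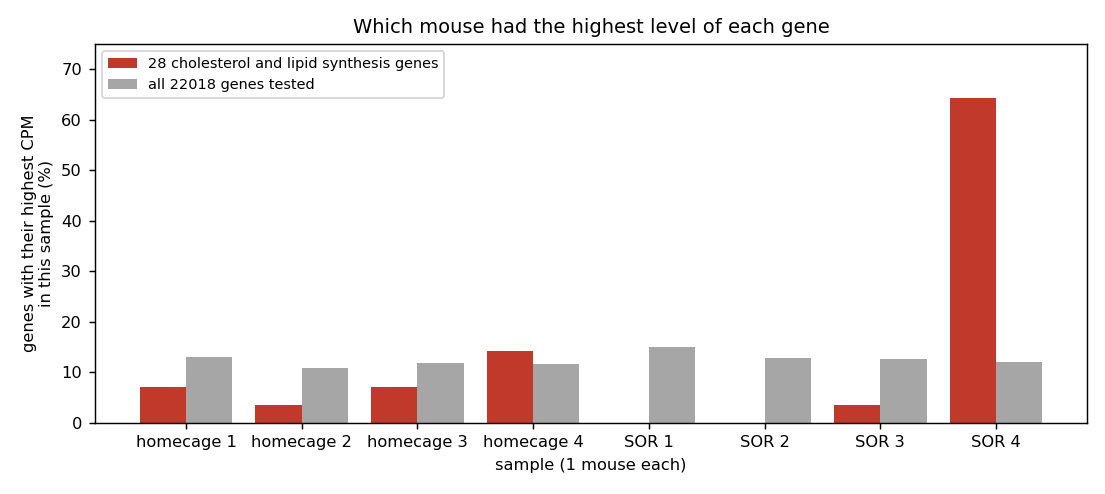
Bars give the share of genes, in percent on an axis from 0, that had their highest CPM in each of the 8 mice, red for the 28 genes and grey for all 22018 genes tested. SOR replicate 4 held the highest level of 64.3% of the 28 genes and of 12.1% of all genes tested, and SOR replicates 1 and 2 of none of the 28.

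Sums of cell type markers were also read in the same mouse. The 5 choroid plexus markers summed to 41.2 CPM in SOR replicate 4. They summed to 790 to 3980 CPM in the remaining SOR mice. In homecage replicates 1 to 4 they summed to 1088, 25.0, 65.1 and 877 CPM, so homecage replicates 2 and 3 were low as well. The 12 mature oligodendrocyte markers summed to 6484 CPM in SOR replicate 4. Their sum was 4949 to 6066 CPM in the remaining SOR mice and 6028 to 6600 CPM in homecage mice, so SOR replicate 4 lay within the homecage range. The 10 astrocyte markers summed to 4793 CPM in SOR replicate 4, the highest of the 8 mice, against 4435 to 4785 CPM in the others, with 6 of 10 above their homecage mean. The 9 neuron markers also had their highest sum there, 4988 CPM against 4346 to 4966 CPM, with 7 of 9 above their homecage mean. The median over these markers in that mouse, relative to the homecage means, was 0.08 on the log2 scale for astrocytes and 0.12 for neurons. The oligodendrocyte sums were 6162, 6600, 6551 and 6028 CPM in homecage replicates 1 to 4. The medians over the 17 sterol enzymes in those mice were -0.044, -0.007, -0.004 and 0.065 in the same order. In SOR replicates 1 to 4 the oligodendrocyte sums were 5544, 6066, 4949 and 6484 CPM, and the medians were 0.007, 0.016, 0.007 and 0.337. All 12 oligodendrocyte markers had a log2 fold change below 0 (56.2% of all genes tested), with a median of -0.19 and none at 0 counts. None of them was called, and 5 were lower at an unadjusted p under 0.05 (5.51% of all genes tested). The part of these markers, and of the size of the library, in the values of the 28 genes was not tested, and in bulk tissue fewer cells of a type and less RNA per cell cannot be told apart.

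The study's own analysis took out unwanted variation with RUVs factors, whose number the methods do not give. With 1, 2 or 3 such factors and edgeR's likelihood ratio test, 3, 3 and 4 of the 28 genes were called, where 1.39%, 2.27% and 2.31% of all genes tested were called. *Cyp51*, *Msmo1* and *Srebf2* were called higher with each number of factors, and *Srebf1* was called lower with 3 factors. The adjusted p of *Srebf2* was 0.0477, 0.000206 and 0.000474 with 1, 2 and 3 factors, and its log2 fold change was 0.27, 0.29 and 0.29. The likelihood ratio test with no such factor called none of the 28 genes, and DESeq2 called none. The study also required a fold change of 1.4 (0.485 on the log2 scale), which the calls given here did not. Over all alternatives with all mice, log2 fold changes reached at most 0.2270 for *Cyp51*, 0.2820 for *Msmo1* and 0.2961 for *Srebf2*. That of *Srebf1* reached -0.3574, so none of these genes met the fold change rule.

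Genes of the pathway outside the 28 were read from 4 fixed lists, and none of their 73 tested genes was called. At an unadjusted p under 0.05 were 0 genes of sterol synthesis, 2 of SREBP processing, 3 of sterol export and uptake and 3 of fatty acid synthesis, in all 8 of 73, a share near the 10.1% of all genes tested. *Idi2* had too few counts to be tested. Of 7 tested genes of sterol synthesis and its sterol-driven targets, 5 were higher and 2 lower, and their log2 fold changes lay between -0.23 and 0.13 (median 0.03).

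Of 11 genes of SREBP processing and turnover, 5 were higher and 6 lower, with a median of -0.03. The largest differences were those of *Syvn1*, a ubiquitin ligase of the endoplasmic reticulum, at 0.30 (SE 0.113, adjusted p = 0.403, edgeR), and of *Fbxw7*, a ligase subunit that marks nuclear SREBP for degradation, at -0.15 (SE 0.0435, adjusted p = 0.247). *Fbxw7* was lower in each SOR mouse (271 to 282 CPM) than in any homecage mouse (291 to 327 CPM), a separation seen in 3.96% of all genes tested. Of 22 genes of sterol export, uptake and esterification, 13 were higher and 9 lower, with a median of 0.00. *Stard3* and *Soat1*, the sterol esterifying enzyme, had the largest log2 fold changes, 0.24 (SE 0.0933) and 0.24 (SE 0.0861), and neither was called. Of 33 genes of fatty acid synthesis, 21 were higher and 12 lower, with a median of 0.01. *Thrsp*, a lipogenic regulator, was at 0.23 (SE 0.105, adjusted p = 0.507, edgeR) and *Elovl7*, a fatty acid elongase, at 0.20 (SE 0.235, adjusted p = 0.839).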

How the data were processed

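Bulk RNA-seq of 4 homecage and 4 SOR mice was used. Per the study's methods the authors used STAR for alignment and featureCounts for gene counts, both run by bcbio-nextgen. The labels name polyA RNA, while the extract protocol and the methods name ribosomal RNA depletion. The deposited values are estimated counts, summarized with tximport and not normalized, and 52.6% are not whole numbers. The quantifier is not given in the sources used here. Positions came from GENCODE M21 (GRCm38), which holds 54495 of the 54532 genes.

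Counts were rounded, filtered with filterByExpr (22018 genes) and scaled by upper-quartile factors. CPM uses the scaled library sizes. Groups were compared in edgeR 4.0.16 (R 4.3.3) by its quasi-likelihood F test. P-values were adjusted after Benjamini and Hochberg over all genes tested, and genes were called at an adjusted p under 0.05. The biological coefficient of variation was 14.1%. An exact two-sided permutation test of log2 CPM over 70 assignments was added for single genes. Alternatives were scaling by TMM, by RLE or by library size, a looser filter (over 5 counts in 2 or more samples), all genes with a count, the likelihood ratio test, DESeq2 1.42.0, 1 to 3 RUVs factors, a replicate block and each mouse left out. The main fit, and none of the alternatives, was tested on simulated data with 200 changed genes. It called 42% of those changed by 0.5 on the log2 scale and 86% of those changed by 1.0. The log2 fold changes of the 28 genes, from -0.36 to 0.33, were all smaller in size than 0.5. Named genes are the 28 members and, from each other pathway list, any gene called and the 2 largest log2 fold changes. The members and lists were chosen with earlier results of these data known. Proteins were not compared, and 2 genes of the sterol synthesis list are not reported here. Python 3.11.15, pandas 2.3.3 and numpy 2.4.6 made the tables.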

Additional observations from a re-analysis of the deposited data

Results flagged for a closer look

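Dixon's test at its 95% critical value flagged 6 of the 72 sets of 4 values tested. In each, 1 mouse lay far from the other 3 of its group. For a single set, chance gives about 1 in 20. The sets share mice and genes of the same pathway and are not independent, so their count cannot be judged against that rate. Of the 6 flags, 3 were sterol enzymes in SOR replicate 4. *Hmgcs1* was at 362 CPM against 274 to 285 CPM in the other SOR mice. *Idi1* was at 55.9 against 39.8 to 40.9 CPM and *Msmo1* at 79.7 against 57.1 to 60.7 CPM. A value of SOR replicate 4 that stood as far above its group was found in 0.872% of all genes tested. *Stard4* was at 15.0 CPM in homecage replicate 1, against 12.1 to 12.5 CPM in the other homecage mice. *Fads1* was at 118 CPM in homecage replicate 1, against 122 CPM in the other 3, a narrow range. The 6 endothelial markers summed to 120 CPM in homecage replicate 2, against 142 to 146 CPM in the others.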

How the results depend on the processing

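The 17 log2 fold changes above 0 and 11 below kept their direction in all 11 alternatives with all mice except those of *Acat2*, at 0.0127, 0.0139 and 0.0136 with TMM, RLE and DESeq2 and at 0.0009, 0.0009 and 0.0053 with 1, 2 and 3 RUVs factors, and of *Fads2*, at -0.0001 and -0.0022 with 2 and 3 factors. No alternative called a member except RUVs factors (3, 3 and 4 members). Over all genes, 68 were called (60 higher, 8 lower), against 214 with the likelihood ratio test, 442 with DESeq2 and 305, 500 and 508 with RUVs factors. DESeq2 called *Mylip* alone of sterol export and uptake (1, as with 2 RUVs factors) and 2 genes of fatty acid synthesis, *Lpin2* and *Elovl6*, named after their values were seen. Homecage and SOR mice share only replicate numbers: deviations correlated between -0.084 and 0.073 at the same number, and mice did not all correlate best with their own. With the replicate block 40 genes and 0 members were called.

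With each mouse left out, 30 to 55 genes and 0 members were called, and the median over the 28 genes was -0.03 without SOR replicate 4 and 0.01 to 0.05 otherwise. At an unadjusted p under 0.05 were 2 members without homecage replicate 2, 3 without SOR replicate 4 and 8 without SOR replicate 1, against 5 with all mice and 7.78%, 10.3% and 9.65% of all genes. Signs turned for *Hmgcs1* (-0.0228 to 0.1245), *Mvk* (-0.0712 to 0.1410), *Sc5d* (-0.0078 to 0.0806), *Dhcr7* (-0.1074 to 0.1087), *Fads1* (-0.0154 to 0.0825) and *Fads2* (-0.0339 to 0.0461), for *Insig1* (-0.1289 to 0.0289), *Acat2* (-0.0447 to 0.0315) and *Scap* (-0.0225 to 0.3557, the lowest without SOR replicate 3), and for *Elovl7* (-0.11, without SOR replicate 1, to 0.35). The cause was not tested. With 4 mice per group, 95% intervals of the 28 genes reached from -0.64 to 0.67.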

Other observations

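The ratio of *Srebf1* to *Srebf2*, each as CPM per kb of exon, was chosen after the values were seen, from the gene with the lowest log2 fold change of the 28 and one of those with the highest, so it is given with no test. It was 0.739, 0.918, 1.02 and 0.812 in homecage replicates 1 to 4 and 0.661, 0.560, 0.679 and 0.413 in SOR replicates 1 to 4. Every SOR mouse was below every homecage mouse, whereas the groups overlapped for each gene alone and neither gene was called. The means were 0.872 ± 0.122 and 0.578 ± 0.122 (SD, n = 4 per group). The ratios of *Insig2* to *Insig1* (0.371 and 0.354), of *Scd2* to *Scd1* (8.26 and 8.24) and of *Fads1* to *Fads2* (0.915 and 0.939) overlapped between the groups.

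*Lpin2*, a phosphatidate phosphatase of glycerolipid synthesis, had 74.8 to 78.6 CPM in homecage and 81.6 to 87.0 CPM in SOR mice (log2 fold change 0.15, SE 0.0372, adjusted p = 0.161, edgeR). *Elovl6*, a fatty acid elongase, had 67.2 to 72.0 and 73.5 to 80.9 CPM, a log2 fold change of 0.16 (SE 0.0432, adjusted p = 0.209). *Mylip*, the ligase that degrades the LDL receptor, had 24.4 to 26.6 and 21.3 to 23.1 CPM, a log2 fold change of -0.22 (SE 0.0550, adjusted p = 0.172). For each of the 3, the groups did not overlap, as in 6.94% of all genes tested (either direction). The 3 were picked because DESeq2 called them, so this is not separate support. Over the 4 other pathway lists, SOR lay above homecage without overlap in 2 of 33 genes of fatty acid synthesis (2.98% of all genes tested). It lay below in 1 of 11 genes of SREBP processing and 1 of 22 of sterol export and uptake (3.96% of all genes tested). Of the 7 tested genes of sterol synthesis, 0 were separated.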
